A study of Mus musculus with 9 samples.

Results

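The guanylate-binding proteins (GBPs) are a family of large GTPases. The members described here were the 8 rows with the symbols Gbp2, Gbp3, Gbp4, Gbp5, Gbp6, Gbp7, Gbp8 and Gbp9, out of 28965 genes in the deposited table. They were picked by symbol after their values in these libraries were known, so their differences between groups are given as a description, with no p-value. All 8 had a mean of at least 10 and so were among the 15002 genes tested.

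RNA was measured in 3T3-L1 cells, an established mouse line of adipocyte precursors labelled wild type. Every group had been held at confluence and then kept for 24 h in insulin (0.1 µg/mL), 3-isobutyl-1-methylxanthine (30 µg/mL) and dexamethasone (0.1 µg/mL), the cocktail that starts adipogenesis. MDI cells also received the albumin vehicle, OA cells 100 µM oleic acid on albumin, and OA_T0 cells that oleic acid together with T0901317 at 5 µM, a synthetic ligand that activates liver X receptors. Each group had 3 libraries, called MDI 1 to MDI 3, OA 1 to OA 3 and OA_T0 1 to OA_T0 3 after their replicate numbers. No group received T0901317 without oleic acid, and nothing in the labels says whether libraries came from separate cultures, so the spread between them may be technical.

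GBPs are produced in response to interferon, above all interferon gamma. Kinases bound to the receptors start the signal, and transcription factors, IRF1 among them, then act on GAS and ISRE elements in GBP promoters. The proteins assemble on vacuoles and membranes of intracellular bacteria and parasites, disrupt them, and help to activate caspases and inflammasomes. In fibroblasts and adipocyte precursors they serve as part of the cell's own defence, and they are commonly read as a measure of interferon signalling. The mouse genes lie in a cluster on chromosome 3, with Gbp2, Gbp3, Gbp5 and Gbp7, and another on chromosome 5, with Gbp4, Gbp6, Gbp8 and Gbp9.

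The promoters of the chromosome 3 cluster are shown because RefSeq promoters were matched for these members and not for those on chromosome 5. They are the 250 bases before a RefSeq start site (GRCm38.p6), read 5′ to 3′ on the gene's strand, with matches to the ISRE (GAAA, any 2 bases, GAAA) or GAS (TTC, any 3 bases, GAA) on either strand in capitals.

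Gbp2, chr3:142620413-142620662, + strand: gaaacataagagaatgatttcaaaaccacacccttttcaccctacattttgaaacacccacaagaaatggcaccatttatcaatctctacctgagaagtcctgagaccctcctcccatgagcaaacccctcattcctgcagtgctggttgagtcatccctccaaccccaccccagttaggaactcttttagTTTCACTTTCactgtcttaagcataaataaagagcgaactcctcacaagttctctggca

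Gbp3, chr3:142559794-142560043, + strand: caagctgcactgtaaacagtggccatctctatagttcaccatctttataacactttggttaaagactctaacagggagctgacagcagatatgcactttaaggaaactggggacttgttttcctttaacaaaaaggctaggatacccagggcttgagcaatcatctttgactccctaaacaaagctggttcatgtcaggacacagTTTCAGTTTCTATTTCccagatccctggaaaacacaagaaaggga

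Gbp5, chr3:142496684-142496933, + strand: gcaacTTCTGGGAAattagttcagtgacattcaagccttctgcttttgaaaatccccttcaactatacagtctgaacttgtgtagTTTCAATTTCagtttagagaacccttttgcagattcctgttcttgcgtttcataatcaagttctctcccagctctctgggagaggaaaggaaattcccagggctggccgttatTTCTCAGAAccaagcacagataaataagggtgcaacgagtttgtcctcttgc

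Gbp7, chr3:142530086-142530335, + strand: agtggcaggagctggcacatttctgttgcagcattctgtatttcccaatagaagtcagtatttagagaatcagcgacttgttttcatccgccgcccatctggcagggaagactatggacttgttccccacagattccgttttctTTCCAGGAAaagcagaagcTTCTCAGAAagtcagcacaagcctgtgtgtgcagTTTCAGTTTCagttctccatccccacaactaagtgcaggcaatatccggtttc

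RefSeq promoters were matched for 4 of the 8 members, and those of Gbp4, Gbp6, Gbp8 and Gbp9 are not shown. The ISRE letters stood 59 to 50 bases before the start in Gbp2, 53 to 44 in Gbp7 and 165 to 156 in Gbp5. Gbp3 held a pair of overlapping matches, at 45 to 36 and 39 to 30. Its other RefSeq start, preceded by chr3:142560106-142560355, had no match to either motif. GAS letters were found in pairs in Gbp5, at 245 to 237 and 52 to 44, and in Gbp7, at 106 to 98 and 87 to 79. In all 32851 promoter windows of this length, from 27025 genes, 2.98% held the ISRE letters, 7.02% the GAS letters and 0.332% both. The files hold no binding data, so these matches describe the sequence alone.

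The family's summed RNA was highest in MDI, lower in OA and lowest in OA_T0. All values below are deposited normalised counts, in which each library was divided by 1 factor. Summed over the 8 members they were 6912, 5697 and 5138 in MDI 1 to 3, 4787, 3085 and 3268 in OA, and 1935, 1575 and 3565 in OA_T0. The means were 5916 ± 907, 3713 ± 934 and 2359 ± 1060.2 (SD, n = 3). The MDI libraries all lay above the OA libraries, whereas OA_T0 3 lay inside the range of OA. In bulk RNA, fewer expressing cells and less RNA per cell cannot be told apart.

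MDI 1 had an estimated 59.9 M fragments, and the other libraries 18.0 M (OA_T0 3) to 29.3 M (OA_T0 2). The floor of detection, 3 fragments, was worth 1.35 to 4.62 deposited units and covers counting error only. The treatments showed in their known targets: Angptl4, induced by fatty acids, averaged 1014 ± 106 in MDI and 12291 ± 1310.3 in OA, and Abca1, induced by liver X receptors, 1101 ± 94.3 in OA and 7341 ± 383 in OA_T0. Precursor markers were abundant but not constant: Pdgfra averaged 13276 ± 1212 in MDI, 18401 ± 437 in OA and 11816 ± 1667 in OA_T0. Dlk1 ranged from 33614 to 45824 over the libraries, and its means were instead lowest in OA and highest in OA_T0 (37585 ± 3079, 35777 ± 3533 and 43502 ± 3665). Pdgfrb averaged 2313 ± 92.2, 2260 ± 121 and 2439 ± 286 in MDI, OA and OA_T0, and Thy1 8120 ± 195, 9021 ± 369 and 8139 ± 207. The adipocyte gene Fabp4 averaged 374 ± 81.4, 2024 ± 312 and 661 ± 72.9 in the same groups, and Lpl 5424 ± 197, 9358 ± 183 and 8651 ± 266. Adipogenic factors did not follow Fabp4: Pparg averaged 945 ± 12.8, 964 ± 44.4 and 1185 ± 37.7, and Cebpb 3860 ± 429, 3328 ± 337 and 4675 ± 637. Cebpd averaged 2200 ± 341, 1893 ± 312 and 2881 ± 263, and Cebpa 383 ± 94.1, 455 ± 47.5 and 429 ± 115. Plin1 and Adipoq were scarce, with group means of at most 5.03 and 3.67. Of 12 immune cell markers found, 2 or 3 per library exceeded 3 fragments and the summed level was 81.5 to 131, most of it Cd14; Adgre1, Itgax, Siglech and Mpo were at 0 in all 9 libraries. OA 1 and OA_T0 3 stood apart: the ribosomal RNA gene CT010467.1 took 0.649% and 3.06% of their totals and 4.40% to 5.96% of the others.

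Gbp2, which restricts Toxoplasma at its vacuole, read 716, 639.7 and 628 in the MDI libraries, 591, 425 and 453 in OA, and 266, 183 and 418 in OA_T0. Gbp3, also recruited to that vacuole, read 943, 763 and 599, then 547, 242 and 313, then 158, 92.5 and 424. In both genes the libraries of MDI lay above those of OA, and OA_T0 3 was the highest of its group by a wide margin. Gbp5, which promotes NLRP3 inflammasome assembly, was the scarcest member, at 28.8, 32.6 and 24.8 in MDI, 32.4, 18.8 and 18.1 in OA, and 9.31, 3.02 and 12.3 in OA_T0. The value in OA_T0 2 was worth 3 fragments, at the floor. Gbp7, which binds subunits of the NADPH oxidase, read 1039, 887 and 812, then 742, 478 and 472, then 311, 266 and 503. Its groups followed the same order, with MDI clear of OA and OA_T0 3 above the lowest OA libraries.

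On chromosome 5, Gbp4, reported to restrain the interferon factor IRF7, read 413, 319.6 and 333 in MDI, 245, 178 and 203 in OA, and 97.3, 126 and 190.0 in OA_T0. Gbp6, recruited to parasite vacuoles, read 1694, 1307 and 1199, then 1038, 637 and 697, then 472, 325 and 918. Both were again highest in MDI, with a single OA_T0 library, replicate 3, reaching into the OA range. Gbp9, another vacuole-recruited member, was the most abundant by count: 1984, 1631 and 1455 in MDI, 1519, 1021 and 1068 in OA, and 520.4, 527 and 999 in OA_T0. OA 1 lay above the lowest MDI library there. Gbp8 differed from the others, at 95.1, 116 and 88.2 in MDI, 73.6, 84.4 and 44.2 in OA, and 101, 52.7 and 102 in OA_T0. Its OA_T0 libraries overlapped the ranges of both other groups.

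**Figure D1:**
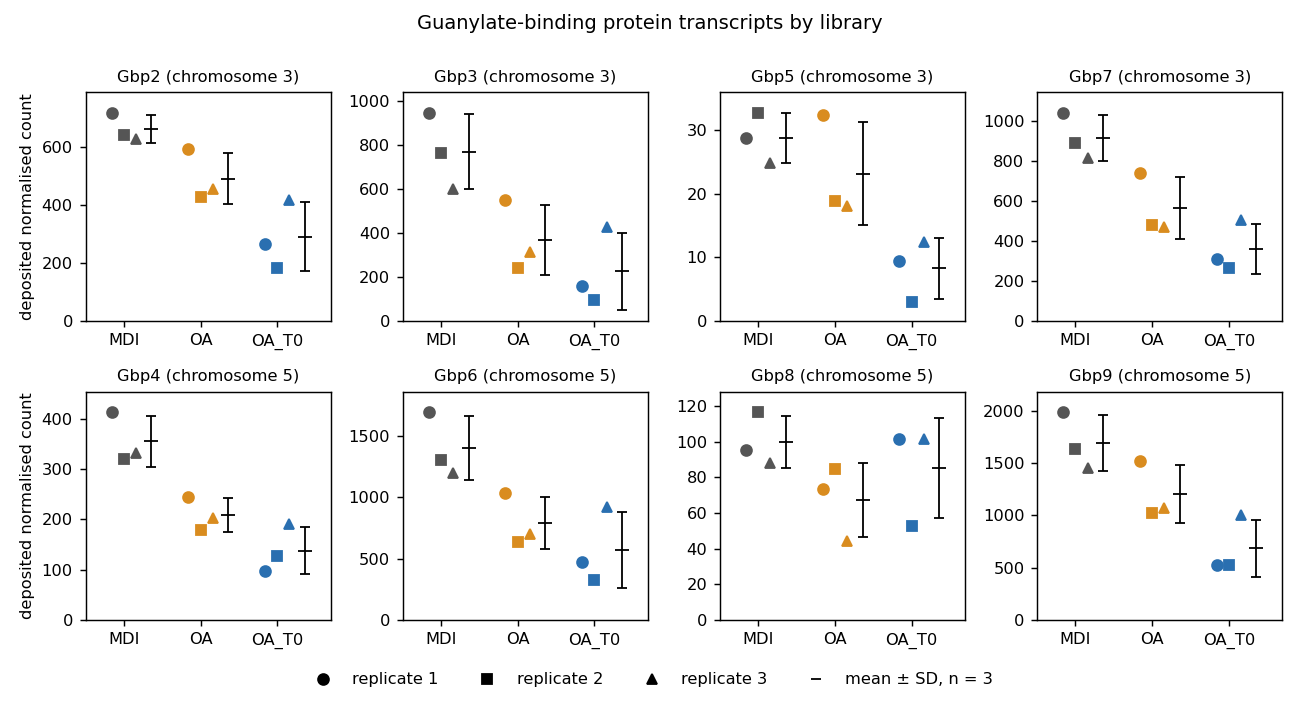
Deposited normalised count of each GBP in each library, with symbols for replicates 1 to 3 and the mean ± SD (n = 3) to the right of each group; every vertical axis starts at 0. In 7 panels the OA_T0 mean is the lowest, from 8.22 for Gbp5 to 682 for Gbp9, and the triangle of OA_T0 3 is the highest of its group in all 8.

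Oleic acid on top of the cocktail went with lower means of all 8 members. Gbp3 showed the widest difference, 2.09-fold lower in OA (768 ± 172 in MDI and 367 ± 159.7 in OA), and Gbp5 the narrowest, 1.24-fold lower (28.7 ± 3.93 and 23.1 ± 8.10). Gbp4 was 1.70-fold lower (355 ± 50.6 and 209 ± 33.5) and Gbp7 1.62-fold lower (913 ± 115 and 564 ± 154). The libraries of MDI and OA did not overlap for Gbp2, Gbp3, Gbp4, Gbp6, Gbp7 and Gbp8, and overlapped for Gbp5 and Gbp9. That is 6 of 8 members, where 12.6% of all tested genes lay without overlap lower in OA.

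On the log2(value + 1) scale the fitted differences between OA and MDI ran from -1.12 (SE 0.40) for Gbp3 to -0.35 (SE 0.43) for Gbp5, with a median of -0.66 over the members and 0.01 over all tested genes. In limma 2 members, Gbp4 and Gbp7, were called lower and none higher, where 3.36% of all tested genes were called lower and 3.43% higher. Since the members were picked with this comparison in view, nothing is read from those counts. The number called lower was 0 without MDI 1, MDI 2, OA 2 or OA 3, 1 without OA_T0 1, 4 without OA_T0 2, 5 without OA_T0 3, and 6 without both libraries that stood apart. The OA_T0 libraries bear on this comparison because the 3 groups share 1 estimate of the spread.

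Adding T0901317 to oleic acid went with lower means of 7 members, while the mean of Gbp8 was 1.27-fold higher (67.4 ± 20.8 in OA and 85.3 ± 28.2 in OA_T0). Gbp5 was 2.81-fold lower in OA_T0, at 8.22 ± 4.75, and Gbp9 was 1.76-fold lower (1203 ± 275 and 682 ± 275). Gbp2 was 1.69-fold lower (489 ± 88.6 and 289 ± 119). These 3 had no overlap between groups, and 15.0% of all tested genes lay without overlap lower in OA_T0. For Gbp3, Gbp4, Gbp6 and Gbp7 the 2 other OA_T0 libraries lay below every OA library, and replicate 3 did not.

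The fitted log2 differences between OA_T0 and OA ran from -1.50 (SE 0.43) for Gbp5 to 0.32 (SE 0.27) for Gbp8, with a median of -0.75 over the members and -0.00 over all tested genes. Gbp2, Gbp4, Gbp5, Gbp7 and Gbp9 were called lower by limma and none higher, 5 of 8 where 6.84% of all tested genes were called lower and 8.27% higher. That number was 0 without OA 1 or OA_T0 1, 2 without OA_T0 2, 3 without MDI 2, and 6 without both libraries that stood apart.

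Between OA_T0 and MDI, which differ in both agents, 7 members were 2.29-fold to 3.50-fold lower in OA_T0. Gbp5 and Gbp3 showed the widest differences, 3.50-fold and 3.42-fold, and Gbp8 was 1.17-fold lower. The 7 other than Gbp8 had no overlap between these groups, and 10.2% of all tested genes lay without overlap lower in OA_T0. Fitted log2 differences were -2.03 (SE 0.40) for Gbp3, -1.85 (SE 0.43) for Gbp5, -1.41 (SE 0.27) for Gbp6, -1.40 (SE 0.20) for Gbp4 and -0.28 (SE 0.27) for Gbp8. The median was -1.40, against 0.02 over all tested genes. The same 7 members were called lower by limma and none higher, where 1.36% of all tested genes were called lower and 1.25% higher. Without MDI 1, MDI 2 or OA_T0 1 the number was 4. With no filter on low genes the numbers of members called lower were 0, 0 and 2 in OA vs MDI, OA_T0 vs OA and OA_T0 vs MDI, and with robust moderation of the variance they were 1, 1 and 2. The 3 comparisons share libraries, so their values for a gene are not independent of one another.

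**Figure D2:**
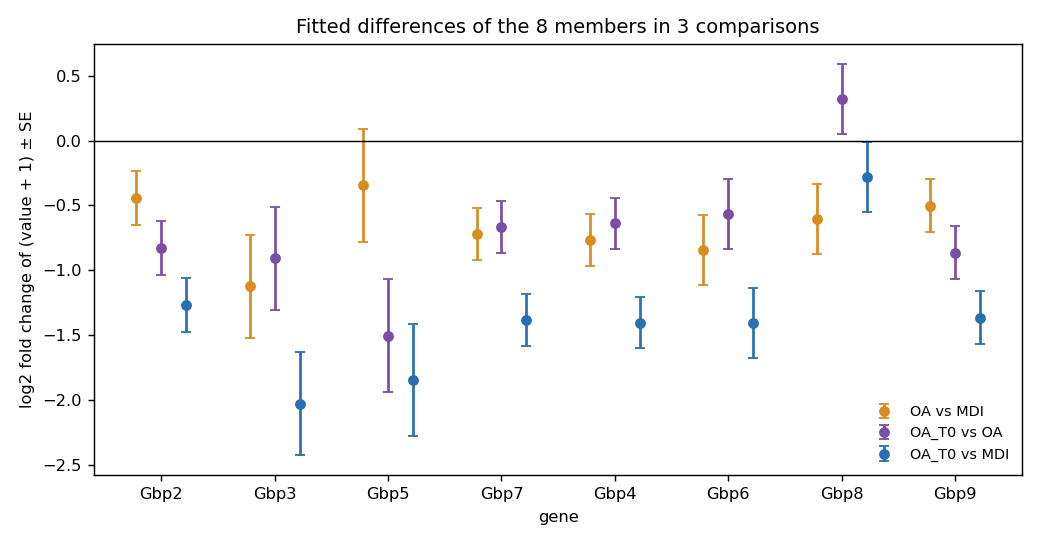
Fitted log2 fold change of (value + 1) ± SE for the 8 members, with OA vs MDI, OA_T0 vs OA and OA_T0 vs MDI in different colours and a line at 0. All points lie below 0 but that of Gbp8 in OA_T0 vs OA, at 0.32, and the lowest is Gbp3 in OA_T0 vs MDI, at -2.03.

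Levels were compared between members per kilobase of the longest coding transcript in GENCODE M21. In MDI, Gbp6 led at 538 ± 100.0 counts per kilobase, before Gbp9 (386 ± 61.6), Gbp3 (286 ± 64.1), Gbp2 (263 ± 19.0), Gbp7 (163 ± 20.5), Gbp4 (78.3 ± 11.2), Gbp8 (40.6 ± 5.98) and Gbp5 (9.41 ± 1.29). Gbp9 and Gbp3 overlapped there, as did Gbp3 and Gbp2, and the other neighbours were separated. In OA the order per kilobase was Gbp6, Gbp9, Gbp2, Gbp3, Gbp7, Gbp4, Gbp8 and Gbp5, and each of the first 5 overlapped its neighbour. Gbp6 stood at 304 ± 83.0 and Gbp5 at 7.56 ± 2.65 counts per kilobase in that group. In OA_T0 the leaders kept that order, from Gbp6 at 219.5 ± 118 counts per kilobase, while Gbp8 (34.7 ± 11.5) and Gbp4 (30.4 ± 10.5) overlapped and Gbp5 stood last at 2.69 ± 1.55.

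The make-up of the family was compared apart from its sum. As a share of the family's counts per kilobase, Gbp6 took 30.4% ± 1.02 in MDI, 27.8% ± 0.567 in OA and 30.4% ± 2.46 in OA_T0. Gbp3 took 16.1% ± 1.31, 12.2% ± 2.24 and 10.8% ± 3.53 of it. Gbp8 took 2.34% ± 0.456, 2.60% ± 1.05 and 5.21% ± 1.65. These shares sum to the whole, so one cannot move alone.

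Near-identical copies limit what a count can say of one member. A window of 50 bases was called unique when no transcript of another gene in GENCODE M21 held it on the same strand. Unique windows made up 99.1% of the Gbp5 transcript, 97.9% of Gbp2, 95.2% of Gbp3, 90.4% of Gbp9, 87.2% of Gbp4 and of Gbp7, and 78.8% of Gbp8. For Gbp6 they made up 9.82%, and 90.2% of its windows were shared with the gene model Gm43302 and 62.3% with Gbp10. At 100 bases the unique share of Gbp6 was 17.1% and that of the others 89.8% to 100.0%. The value of Gbp6 is therefore uncertain as a measure of that gene alone.

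Summing Gbp6, Gbp10 and Gm43302 gave 1442 ± 265 in MDI, 827 ± 255 in OA and 588 ± 327 in OA_T0 (n = 3). The sum was 1.74-fold lower in OA than in MDI and 2.45-fold lower in OA_T0 than in MDI, close to the 1.77-fold and 2.45-fold of Gbp6 by itself. Gbp6 made up at least 92.7% of the sum in every library, so these ratios could differ little and do not test how shared reads were split. Fractional values differed between members: Gbp2 and Gbp5 were whole multiples of 1 fragment in all 9 libraries (within 0.05 of a step). Gbp3 was whole in 7, Gbp8 in 4, Gbp9 in 3, Gbp6 in 2, Gbp4 in 1 and Gbp7 in none. Fractional values were therefore not particular to Gbp6.

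**Figure D3:**
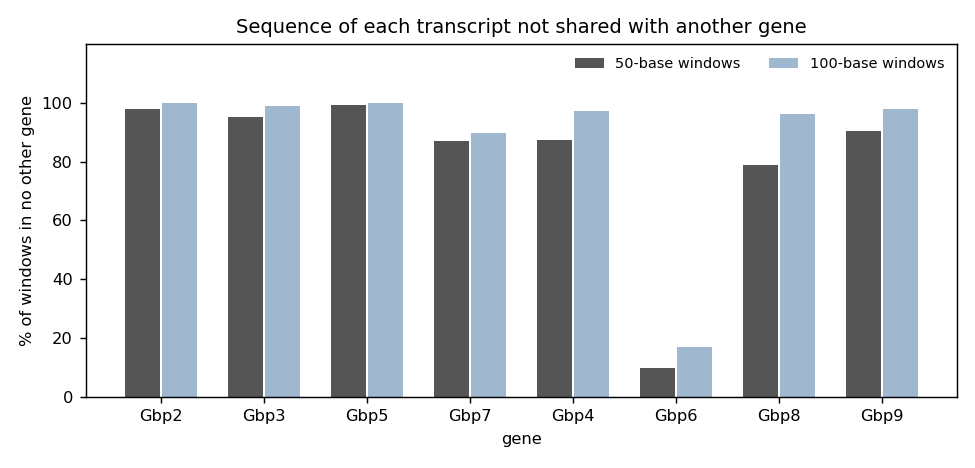
Percentage of windows of each member's longest coding transcript that occur in no other gene, for windows of 50 bases (dark) and 100 bases (light). Gbp6 stands at 9.82% and 17.1%, and the other 7 members at 78.8% or more.

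Within groups, the members varied together from library to library. After each gene's group means were taken off the log2 values, the 28 pairs of members had a median correlation of 0.85 over the 9 libraries, from 0.01 for Gbp4 with Gbp8 to 0.99 for Gbp3 with Gbp6. Among the 7 members other than Gbp8 the median over 21 pairs was 0.91, and for Gbp8 with those 7 it was 0.51. Points share their library and its scaling factor, so these are descriptions.

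The highest and lowest libraries were largely the same for all members. OA_T0 3 was the highest of its group for 8 of 8 members, OA 1 for 7 and MDI 1 for 6. MDI 3 was the lowest of its group for 7 members, OA_T0 2 for 6 and OA 2 for 5. The mean log2 deviation of the 8 members from their group mean was 0.66 in OA_T0 3, 0.39 in OA 1, 0.17 in MDI 1 and -0.58 in OA_T0 2. A list of 20 core genes of the type I interferon response deviated the same way, by 0.95, 0.58, 0.30 and -0.82 in those libraries. OA_T0 3 and OA 1 are also the libraries with the least CT010467.1, and the part of this in the members' values was not tested. Within MDI the 2 did not go together: MDI 3, with the least CT010467.1 (4.40%), had the lowest deviation (-0.18). MDI 1, at 4.45%, had the highest.

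**Figure D4:**
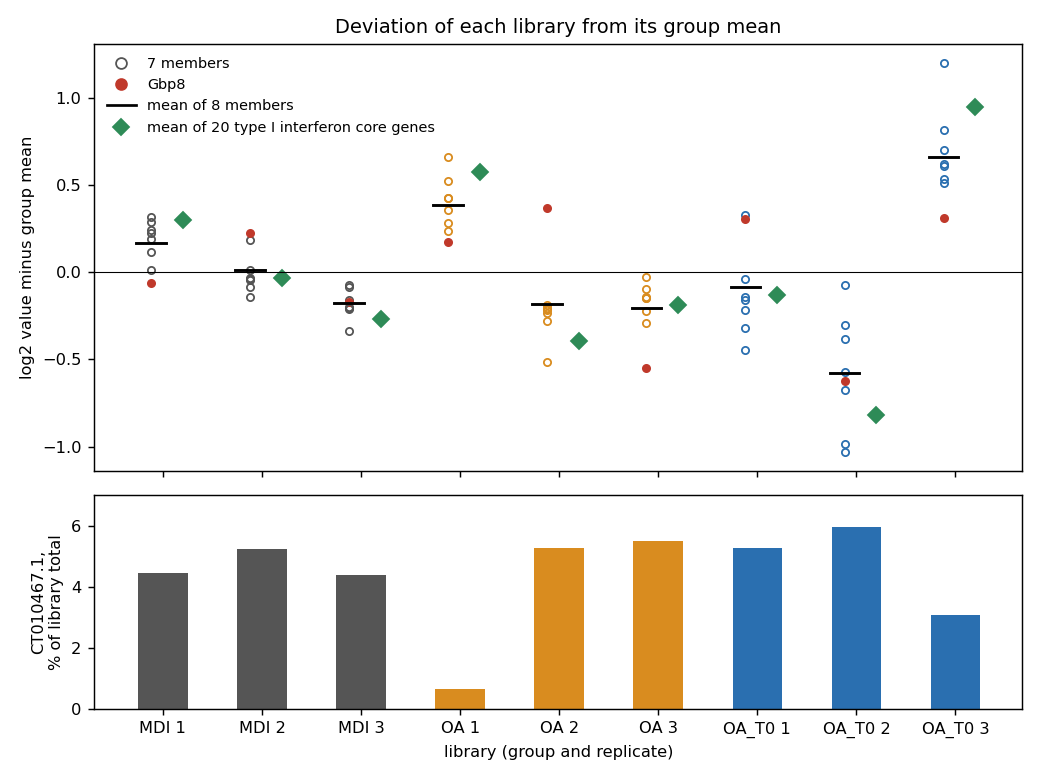
Upper panel: log2 value minus group mean for each member in each library (circles, Gbp8 in red), with the mean of the 8 (line) and of 20 type I interferon core genes (diamond). Lower panel: CT010467.1 as a percentage of the library total, lowest at 0.649% in OA 1 and 3.06% in OA_T0 3, the libraries where the members lie 0.39 and 0.66 above their group means. In MDI the lowest percentage, 4.40% in MDI 3, goes with the lowest mean of the members, at -0.18.

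The genes most like the family were ranked among 11996 genes by the correlation of their log2 values with the mean of the 8 members. Over the 9 libraries the closest were Ifi203 (r = 0.993), Cmpk2 (0.992), Iigp1 (0.991), Samd9l (0.990) and Oasl2 (0.988). With group means removed they were Tor3a (0.996), Ifi44 (0.996), Iigp1 (0.995), Slfn8 (0.994) and B2m (0.992). The 10 closest genes of either ranking had 4 in common. By the same measure Gbp3, Gbp6, Gbp7 and Gbp2 followed the family mean at 0.987 to 0.991 over the 9 libraries, and Gbp8 at 0.481. Each member is itself part of that mean, which raises its correlation, so members and other genes are not on equal terms.

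Upstream of the GBPs, no interferon gene was measured above the floor. Of 21 interferon genes listed, 3 were found, Ifnb1, Ifne and Ifnz, and none exceeded 3 fragments in any library. The receptors were well expressed and none of 5 passed limma's threshold in any comparison. At an unadjusted p under 0.05, 3 receptors were higher in OA than in MDI, 0 differed between OA_T0 and OA, and 1 was higher in OA_T0 than in MDI. Ifngr1, a chain of the interferon gamma receptor, averaged 1338 ± 95.6 in MDI, 1534 ± 67.7 in OA and 1484 ± 89.1 in OA_T0. Ifnar1, a chain of the type I receptor, averaged 2142 ± 171, 2350.4 ± 115 and 2256 ± 28.0. The kinase Jak1 had log2 differences of -0.01, -0.09 and -0.10 in OA vs MDI, OA_T0 vs OA and OA_T0 vs MDI (adjusted p = 0.933, 0.345 and 0.375).

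Some of the kinases and factors that carry the signal to GBP promoters were lower. Of 12 tested genes of this group, 3 fell in OA vs MDI, 1 in OA_T0 vs OA and 5 in OA_T0 vs MDI. In all 3 comparisons 0 rose. Over all tested genes 3.36%, 6.84% and 1.36% were called lower, and the 1 in OA_T0 vs OA is near that share. Median log2 differences of the group were -0.35, -0.16 and -0.40. At an unadjusted p under 0.05, 6, 2 and 9 were lower and 0 higher. Over the receptors, these factors and the feedback, sensor, partner and prenylation genes given below, 66 genes were tested and 7, 3 and 17 fell in the 3 comparisons; with no filter on low genes limma called 1, 0 and 1 lower. Among the calls named here and below, those of Jak2 in OA vs MDI, Atg5 in OA_T0 vs OA, Tlr3 in OA_T0 vs MDI and Fdps in both comparisons with OA_T0 also passed with no filter, and the others did not. With robust moderation the calls of Stat2, Ifih1 and Rnf213 in OA vs MDI were lost, and in OA_T0 vs MDI those of Stat2, Irf9, Irf7, Usp18, Irgm1, Irgm2, Igtp, Mx1, Mx2 and Gvin1. The list was chosen with results of these libraries known, so its counts are no independent support.

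Irf1, a factor that binds ISRE elements, read 1621, 1748 and 1974 in MDI, 1838, 1521 and 1842 in OA, and 1397, 1408 and 1487 in OA_T0. MDI and OA overlapped for Irf1 (log2 difference -0.04, adjusted p = 0.843). Against OA it fell by 0.27 in OA_T0 (SE 0.08, adjusted p = 0.0407). That call was lost without MDI 2 (0.0616), OA 1 (0.169), OA 3 (0.108), OA_T0 1 (0.146) or OA_T0 2 (0.0775).

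Stat2, a subunit of the ISRE-binding complex of the type I response, fell in OA vs MDI, from 1625 ± 314 to 863 ± 205 (log2 difference -0.92, SE 0.20, adjusted p = 0.0122; 0.0723 without MDI 1 and 0.0615 without MDI 2). Jak2, a kinase of the interferon gamma receptor, fell by 0.33 (SE 0.06, adjusted p = 0.00618; 0.0534 without MDI 2). Nlrc5, the activator of MHC class I genes, fell by 1.04 (adjusted p = 0.0455), and its call was lost without any of 7 single libraries, all but OA_T0 2 and OA_T0 3, at up to 0.161 without MDI 1, and also with equal library totals (0.0537). Against MDI, OA_T0 was also lower for Stat2, Irf9, Irf7 and Nlrc5, at adjusted p = 0.0262, 0.0278, 0.0254 and 0.0173. All 4 calls were lost without MDI 1, MDI 2, OA_T0 1 or OA_T0 2, with adjusted p = 0.0505 to 0.168.

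Of 9 feedback genes, 0 passed in OA vs MDI in limma (1 higher and 1 lower at an unadjusted p under 0.05), and 1 fell in each of the other comparisons. Over all tested genes 6.84% fell in OA_T0 vs OA and 1.36% in OA_T0 vs MDI. Usp18, an inhibitor of type I receptor signalling, fell in OA_T0 vs MDI from 633 ± 200.1 to 192 ± 178 (adjusted p = 0.0334, and 0.0841 to 0.165 without MDI 1, MDI 2, OA_T0 1 or OA_T0 2). Pias1, an inhibitor of interferon signalling, fell by 0.21 in OA_T0 vs OA (adjusted p = 0.0311), and did not pass without any of 5 single libraries, all the OA libraries and OA_T0 1 and OA_T0 3 (0.0572 to 0.121). Socs1, a brake on JAK kinases, averaged 149 ± 23.6, 134 ± 15.3 and 134 ± 10.5 in MDI, OA and OA_T0.

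**Figure D5:**
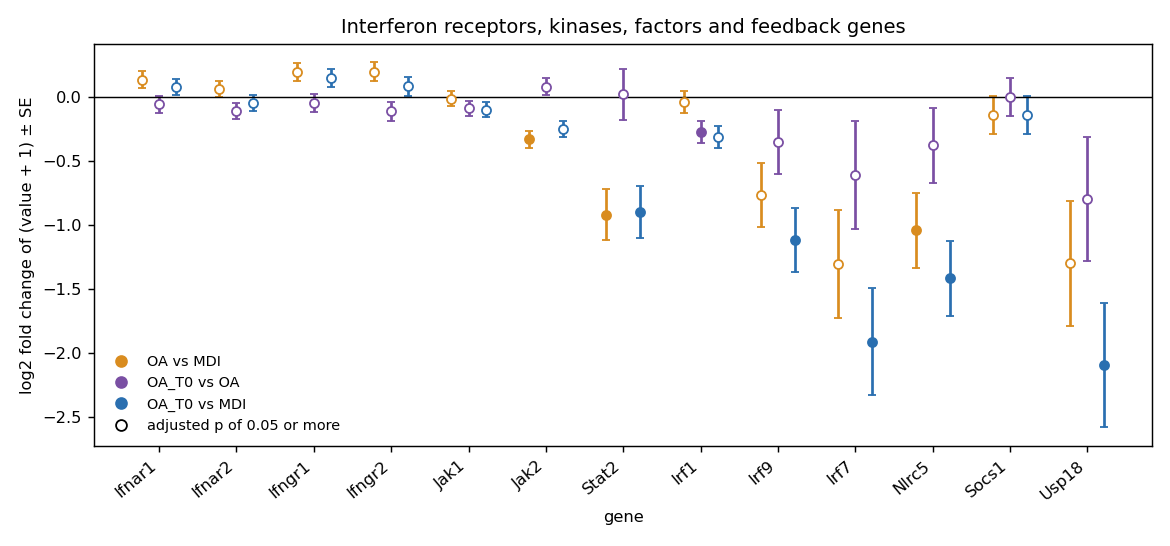
Fitted log2 fold change of (value + 1) ± SE for interferon receptors, kinases, transcription factors and feedback genes in the 3 comparisons; open circles have an adjusted p of 0.05 or more. The 4 receptor genes plotted and Jak1 lie near 0, from -0.11 to 0.20, and Irf7 lies at -1.91 and Usp18 at -2.10 in OA_T0 vs MDI.

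Other interferon response genes were mostly lower in OA_T0 than in MDI. Of the 20 core genes of the type I response, 2 fell in OA vs MDI, 0 in OA_T0 vs OA and 16 in OA_T0 vs MDI. Over all tested genes the shares called lower were 3.36%, 6.84% and 1.36%. Median log2 differences of the core genes were -1.15, -0.59 and -1.69. Unadjusted p-values under 0.05 in limma were found for 19, 6 and 20 of the core genes, all lower. The 2 in OA vs MDI were Ifit2 (log2 difference -0.43, adjusted p = 0.0362) and Ifi35 (-0.61, adjusted p = 0.0261). Their number was 0 without MDI 1, MDI 2, OA 2 or OA 3, 1 without OA_T0 1, 8 without OA 1, 15 without OA_T0 2 and 18 without OA_T0 3. Without OA_T0 3 the number lower in OA_T0 vs OA was 15. In OA_T0 vs MDI it was 1 without MDI 1, 2 without MDI 2 or OA_T0 1, and 7 without OA_T0 2. With no filter 0 of the 20 were called lower in any of the 3 comparisons, and with robust moderation 1, 0 and 1.

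Among 11 sensors of nucleic acids, 2 fell in OA vs MDI, 1 in OA_T0 vs OA and 6 in OA_T0 vs MDI. Over all tested genes the shares called lower were 3.36%, 6.84% and 1.36%. Unadjusted p-values under 0.05 in limma were found for 6, 4 and 6 of the sensors, all lower. Tlr3, an endosomal sensor of double-stranded RNA, fell from 892 ± 50.8 in MDI to 639.9 ± 80.3 in OA (adjusted p = 0.00888, and 0.0647 without MDI 2) and stood at 565 ± 65.4 in OA_T0, lower than MDI (adjusted p = 0.0019). Ifih1, the cytosolic sensor MDA5, fell by 0.83 in OA vs MDI (adjusted p = 0.0187), and did not pass without MDI 1, MDI 2, OA 2 or OA 3 (0.0576 to 0.0864). Trim25, a ubiquitin ligase of the RIG-I pathway, fell by 0.48 in OA_T0 vs OA (adjusted p = 0.00629), also with each library left out (at most 0.0436).

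In each comparison most partners of the GBPs at vacuoles and inflammasomes did not pass. Of 20 tested, 1 rose and 1 fell in OA vs MDI, 1 rose in OA_T0 vs OA, and 5 fell in OA_T0 vs MDI. Over all tested genes, 3.43% rose and 3.36% fell in the first comparison, 8.27% rose in the second and 1.36% fell in the third. The single calls in the first 2 comparisons are about what those shares give. At an unadjusted p under 0.05 in limma, 6, 3 and 7 of the 20 were lower and 2, 3 and 2 higher. In OA vs MDI 7 lay without overlap lower and 2 higher, where 12.6% of all tested genes lay without overlap lower. Irgm2, an immunity-related GTPase that works with GBPs, averaged 1246 ± 267 in MDI, 729 ± 249.8 in OA and 462 ± 291 in OA_T0. It fell in OA_T0 vs MDI (log2 difference -1.58, SE 0.31, adjusted p = 0.0133), and likewise Irgm1 (-1.26, adjusted p = 0.0136) and Igtp (-1.35, adjusted p = 0.023). These 3 calls were lost without MDI 1, MDI 2 or OA_T0 1 (0.073 to 0.134), and that of Igtp also without OA_T0 2 (0.0586). Rnf213, a giant ubiquitin ligase active against intracellular bacteria, fell from 19406 ± 3776 in MDI to 9804 ± 2265 in OA (adjusted p = 0.00967; 0.0585 without MDI 1 and 0.0563 without MDI 2) and averaged 8552 ± 3271 in OA_T0. Casp4, the mouse caspase-11 gene, averaged 1593 ± 69.1, 1381 ± 112 and 1381 ± 125 in MDI, OA and OA_T0 and did not pass in any comparison.

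The gene that rose in OA vs MDI was Gabarap, an autophagy adaptor, by 0.26 (adjusted p = 0.0292), and the one that rose in OA_T0 vs OA was Atg5, of the autophagy conjugation system, by 0.23 (adjusted p = 0.0283). Neither call held when single libraries were left out, Gabarap in 5 cases (up to 0.142 without OA 1) and Atg5 in 4 (up to 0.123 without OA_T0 1). With equal library totals neither passed.

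Some GBPs, Gbp2 and Gbp5 among them, end in a motif to which a farnesyl or geranylgeranyl lipid is attached, and 9 genes of that pathway were read beside them. In all 3 comparisons the gene that passed was Fdps, which makes farnesyl pyrophosphate, and the other 8 did not. It averaged 626 ± 78.2 in MDI, 455 ± 58.0 in OA and 1796 ± 247 in OA_T0. Against OA it rose by 1.98 in OA_T0 (SE 0.11, adjusted p = 3.31e-08), in the direction opposite to most GBPs. In OA vs MDI it fell by 0.46 (adjusted p = 0.0251), a call lost without MDI 2 (0.0815), MDI 3 (0.0737), OA 1 (0.0834) or OA 2 (0.093). Fnta, the shared subunit of the prenyl transferases, averaged 2639 ± 286, 2723 ± 76.0 and 2901 ± 39.6 and did not pass.

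The remaining family members in the table were scarce. Gbp2b averaged 43.7 ± 13.1 in MDI, 30.8 ± 9.30 in OA and 15.2 ± 5.95 in OA_T0, and fell in OA_T0 vs MDI (log2 difference -1.49, SE 0.34, adjusted p = 0.0297). That call was lost without MDI 1 (0.0934), MDI 2 (0.173) or OA_T0 2 (0.0813). Gbp11 averaged 51.7 ± 11.9, 29.2 ± 10.9 and 28.0 ± 11.1, with adjusted p = 0.169 in OA vs MDI. Gbp10 averaged 22.1 ± 1.55 in MDI and 16.2 ± 10.2 in OA, and read 1.75, 1.03e-13 and 12.3 in OA_T0, the second of these in effect 0. Of 6 tested relatives outside the family, Mx1, Mx2 and Gvin1 fell in OA_T0 vs MDI (adjusted p = 0.0189, 0.0113 and 0.0425), and 0 passed in the other comparisons in limma (unadjusted p under 0.05 for 2 and 1, all lower). Over all tested genes 1.36% were called lower in OA_T0 vs MDI. The calls of Mx1 and Mx2 were lost without MDI 1, MDI 2 or OA_T0 1 (0.0546 to 0.118), and that of Gvin1 without 5 single libraries (up to 0.224 without OA_T0 1). With no filter these 3 had adjusted p = 0.158, 0.137 and 0.216, and with robust moderation 0.18, 0.156 and 0.226.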

How the data were processed

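RNA was measured in 9 libraries of 3T3-L1 cells, 3 in each of the groups MDI, OA and OA_T0, from poly(A) RNA with strand-specific preparation per the labels. The authors deposited a normalised signal for each gene, in which each library was divided by 1 factor. Part of the values were not whole after that factor was undone, and the source of these fractions was not tested. CASAVA 1.8.2, TopHat, HTSeq, DESeq2 and the build mm9 are named in the submitters' processing notes, without role or order, so how reads shared between genes were counted is not given in the sources used here. Between 5 and 50 fragments, 64.6% to 68.8% of values were whole multiples of 1 fragment within 0.05, so read counts were not recovered and count tests were not run. Depth was estimated as the total over the worth of 1 fragment.

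Values were taken as log2(value + 1), a scale that understates the change of low genes, and the 15002 genes with a mean of at least 10 were tested with limma 3.58.1 (R 4.3.3), letting the variance depend on mean level and pooling it over the 3 groups. Two-sided p-values were adjusted by Benjamini-Hochberg over all tested genes within a comparison, with a threshold of 0.05 for passing. The members and 13 other lists of 162 symbols, 133 of them found, were chosen with earlier results of these data known. Named genes were all 8 members, the rest of the family, fixed pathway genes and those of the lists that passed. Of the 10 genes most like the family mean in each ranking, only the closest were named. The procedure was tested on simulated data with independent normal noise for each gene. Those data held no libraries that stood apart and no genes varying together, so they do not test how stable the calls are. Alternatives tried were a pseudocount of 0.5 or 5, a minimum mean of 50 or none, quantile normalisation, equal totals, only the 2 groups compared, a replicate block, robust moderation and each library left out; leaving out OA 1 with OA_T0 3 was added after seeing the data. Transcripts came from GENCODE M21 and promoters from RefSeq (GRCm38.p6). No positions come from the deposited files, and protein sequences were not used here. A gene counted within the lists is not reported here by name.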

Additional observations from a re-analysis of the deposited data

How the results depend on the processing

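Alternatives are given in the order OA vs MDI, OA_T0 vs OA and OA_T0 vs MDI, with genes called by limma. The members called lower numbered 2, 5 and 7. Without a filter they numbered 0, 0 and 2, with robust moderation 1, 1 and 2, with equal totals 1, 3 and 7, with only the 2 groups compared 6, 2 and 6, with quantile normalisation 1, 4 and 7, and without OA 1 and OA_T0 3 they were 6, 6 and 7. Leaving out 1 library gave 0 to 5, 0 to 7 and 4 to 7 lower, 0 higher throughout, and median log2 fold changes of -0.79 to -0.52, -1.05 to -0.51 and -1.67 to -1.21. Every member kept its sign in all alternatives but Gbp8 in OA_T0 vs MDI, at 0.03 without OA_T0 2. The median correlation among members ranged from 0.73 to 0.95 with 1 library left out. At a minimum mean of 50, Gbp5 had no value.

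Of 66 pathway genes (the interferon core genes and other GTPases not counted), 7, 3 and 17 were lower and 1, 2 and 1 higher. Lower counts were 1, 0 and 1 without a filter, 4 in the first and 4 in the last comparison with robust moderation, 18 in OA vs MDI with only the 2 groups, 6 in OA_T0 vs OA with quantile normalisation, and 19 and 11 in the first 2 comparisons without OA 1 and OA_T0 3. Higher counts were 0 in OA vs MDI without a filter, with equal totals and without both libraries, and 1 in OA_T0 vs OA in the last 2 of these. With 1 library left out, 0 to 18, 1 to 15 and 3 to 18 were lower and 0 to 2, 1 to 4 and 1 to 1 higher.

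Over all genes, 514, 1240 and 188 were called higher and 504, 1026 and 204 lower. Without a filter 233 higher and 234 lower were called in the first comparison, 620 lower in the second, and 72 higher and 38 lower in the last, where robust moderation gave 132 lower. Without both libraries OA_T0 vs OA had 524 higher and 400 lower. One library left out gave 214 to 660, 580 to 1443 and 66 to 283 higher and 155 to 642, 474 to 1239 and 45 to 247 lower. The cause of these changes was not tested.

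Whether replicate numbers pair the libraries was not settled. Same-numbered libraries correlated at -0.256 to 0.259, above 0.1 in 1 of 9 cases, and different-numbered ones at -0.230 to 0.250. With 3 libraries per group these values cannot show whether libraries shared a batch. With a replicate block the members called lower numbered 2, 4 and 7. Under that block 5, 1 and 18 of the 20 interferon core genes were lower, against 2, 0 and 16. Of the other genes named, Nlrc5 in OA vs MDI (adjusted p = 0.0591) and Gvin1 in OA_T0 vs MDI (0.0693) lost their calls, and Mx1 and Mx2 passed in OA vs MDI (both 0.0323). Depth limits Gbp5 most, with 3 fragments in OA_T0 2.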
